A study of Mus musculus with 6 samples.

Results

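Superoxide dismutases convert superoxide, the radical that forms when an electron escapes to oxygen, into hydrogen peroxide. Catalase, the glutathione peroxidases and the peroxiredoxins then reduce hydrogen peroxide or lipid peroxides to water and alcohols. The dismutases are divided by place and metal: Sod1 holds copper and zinc in the cytosol, Sod2 holds manganese in mitochondria, and Sod3 holds copper and zinc and is secreted into the extracellular matrix. In the stomach, as in other epithelia exposed to bacteria and irritants, these enzymes are part of the ordinary defence against oxidants. The 10 genes described here (Sod1, Sod2, Sod3, Cat, Gpx1, Gpx2, Gpx3, Gpx4, Prdx1 and Prdx6) were taken by name from the 21959 genes of the deposited count table. They were chosen as a set because Sod3 was higher in the paclitaxel-resistant line. The difference in Sod3 is therefore given as a description, with no test, and Sod3 is left out of the counts of changed genes.

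RNA was sequenced from the mouse gastric adenocarcinoma cell line MPC and from its derivative MPC-PTX, with 3 libraries per line. The study's text calls the same lines MTC and MTC-R. Both lines carry the genotype CDH1-/-;Trp53-/-, so no library comes from cells with intact E-cadherin and p53 genes. MPC is a clone picked from a subcutaneous tumour that organoids of this genotype had formed in nude mice, and its libraries are labelled control. MPC-PTX was made from it by over 30 cycles of paclitaxel (PTX), a drug that stabilizes microtubules, at rising concentrations, followed by a further monoclonal selection. Each line is thus 1 clone, and the effect of the drug and differences between clones cannot be told apart. The labels give all 6 libraries the same batch and medium and do not say whether the replicates of a line were separate cultures, so p-values may measure technical spread alone.

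The libraries held 16574580 to 23148182 counts and 13897 to 14295 detected genes, and 11795 genes passed the filter on low counts. Levels are given as CPM (gene counts relative to the library's total), scaled between libraries by TMM, and differences as log2 fold changes of MPC-PTX against MPC. A gene was called changed when its p from edgeR's quasi-likelihood test, adjusted over all tested genes by Benjamini-Hochberg (BH), was below 0.05. The labelled epithelial origin was matched by Epcam, Krt8, Krt18, Krt19, Krt7 and Cldn4, whose summed level was 9125 to 10573 CPM in the MPC libraries and 5462 to 5650 CPM in the MPC-PTX libraries. All 6 of these markers were called lower in MPC-PTX. Of 6 gastric markers, Ctse and Anxa10 were abundant only in MPC, with the list's sum at 322 to 460 CPM against 1.58 to 2.26 CPM, whereas Tff1, Tff2 and Gkn2 were at 0 in every library and Muc5ac had at most 2 counts. In these bulk samples, fewer cells of a type and less RNA per cell cannot be told apart.

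Across the set, Sod2 rose in MPC-PTX, and Sod1, Cat and Prdx1 fell. Of the 8 tested genes other than Sod3, 1 was called higher and 3 were called lower, beside 14.1% of all tested genes called higher and 15.6% called lower. Gpx1 did not pass the filter on low counts, and Sod3 passed it through its MPC-PTX libraries. The other 4, Gpx2, Gpx3, Gpx4 and Prdx6, were not past the test. The median log2 fold change of these 8 genes was -0.29, against 0.04 over all tested genes. By the rule of the study's methods (a log2 fold change beyond 1 in size with an unadjusted p below 0.05), 0 of the 8 were changed with edgeR and 0 with DESeq2, beside 3.77% of all tested genes higher and 4.34% lower, or 8.11% in all. Without the fold limit, 6 of the 8 had an unadjusted edgeR p below 0.05, beside 41% of all tested genes. Sod2 was above MPC in every MPC-PTX library and 4 genes (Sod1, Cat, Prdx1 and Prdx6) were below it in every library, beside 24.2% of all tested genes above and 22.7% below. Since the set was chosen in this same contrast, nothing is read from these shares.

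**Figure D1:**
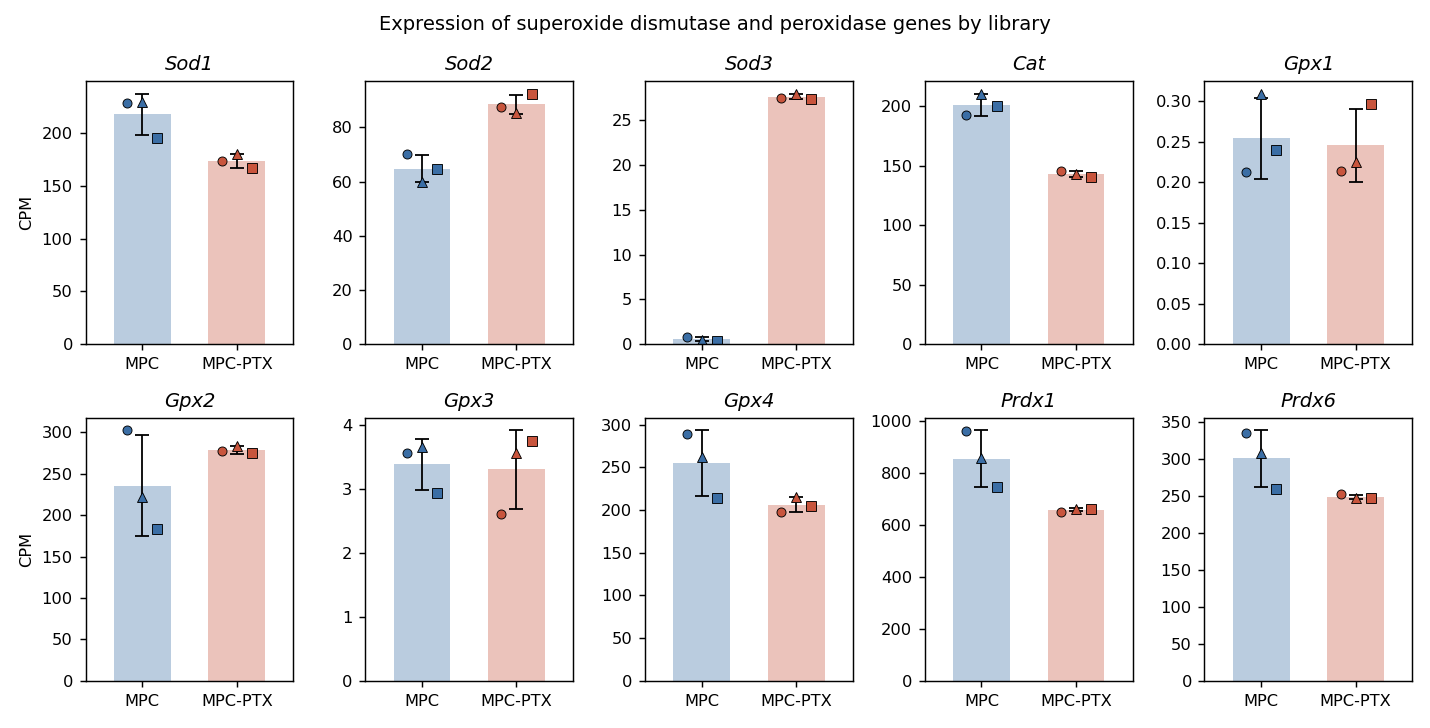
Expression of the 10 superoxide dismutase and peroxidase genes in CPM by library, with bars at the mean of 3 libraries, error bars of 1 SD, and circles, triangles and squares for replicates 1, 2 and 3. Sod3 sits below 1 CPM in MPC and between 27.4 and 28.0 CPM in MPC-PTX, whereas the means of the other 9 genes differ far less between the lines.

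The promoter windows of the 4 genes called changed are shown first, since 3 of them fell and 1 rose. The letters are the 250 bases before the RefSeq transcript start (build GRCm38.p6), written on the strand of the gene, at chr16:90220512-90220761 (plus strand) for Sod1, chr17:13007589-13007838 (plus strand) for Sod2, chr2:103485154-103485403 (minus strand) for Cat and chr4:116685349-116685598 (plus strand) for Prdx1. Capitals mark matches on either strand to the core letters of the antioxidant response element, which NRF2 binds (TGACNNNGC or TGAGNNNGC), the GC box (GGGCGG), the CCAAT box (CCAAT) and the TATA box (TATAAA).
Sod1: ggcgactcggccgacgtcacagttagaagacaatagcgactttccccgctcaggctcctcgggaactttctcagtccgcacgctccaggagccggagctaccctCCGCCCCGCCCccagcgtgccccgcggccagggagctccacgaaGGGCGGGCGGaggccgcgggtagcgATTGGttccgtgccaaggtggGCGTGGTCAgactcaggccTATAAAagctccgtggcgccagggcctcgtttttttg
Sod2: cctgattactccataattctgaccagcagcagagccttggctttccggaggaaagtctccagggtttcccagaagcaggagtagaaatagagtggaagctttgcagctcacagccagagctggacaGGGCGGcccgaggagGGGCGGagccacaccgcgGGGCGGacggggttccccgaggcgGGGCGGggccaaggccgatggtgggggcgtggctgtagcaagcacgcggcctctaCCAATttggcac
Cat: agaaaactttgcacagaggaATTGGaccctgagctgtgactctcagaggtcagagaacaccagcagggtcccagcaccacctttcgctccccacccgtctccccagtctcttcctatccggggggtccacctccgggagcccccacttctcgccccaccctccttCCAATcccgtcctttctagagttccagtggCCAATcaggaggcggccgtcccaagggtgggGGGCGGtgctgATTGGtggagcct
Prdx1: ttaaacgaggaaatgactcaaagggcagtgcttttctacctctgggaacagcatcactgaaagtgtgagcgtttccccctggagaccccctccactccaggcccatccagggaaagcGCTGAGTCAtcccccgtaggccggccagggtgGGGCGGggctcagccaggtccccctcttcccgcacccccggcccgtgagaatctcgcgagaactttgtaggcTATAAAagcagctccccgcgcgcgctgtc

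The antioxidant response core TGACNNNGC stood once in the window of Sod1 and once in that of Prdx1, and in neither of the windows of Sod2 and Cat. Among 32851 mouse promoter windows of the same length, 10.2% held it. The alternative core TGAGNNNGC was in none of the 4 windows, against 14.4% of all windows. The windows of Gpx1, Gpx2, Gpx3 and Gpx4, which are not shown, held neither core. Sod1 and Sod2 held 4 GC boxes each and Cat and Prdx1 held 1 each, a motif found in 32.7% of all windows. Cat had 4 CCAAT boxes, Sod1 and Sod2 had 1 each and Prdx1 had 0, against 33.8% of all windows with a match. A TATA box was present in Sod1 and Prdx1 and in 12.4% of all windows. A match is a description of letters, and no binding was measured in these cells.

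Sod3 (ENSMUSG00000072941; chr5:52363791-52371418 on the plus strand, GRCm38, GENCODE M21) encodes the secreted dismutase, which binds heparan sulphate on cell surfaces and in matrix. Its raw counts in replicates 1, 2 and 3 were 16, 10 and 7 in MPC and 643, 620 and 461 in MPC-PTX. As levels, these were 0.850, 0.516 and 0.336 CPM in MPC and 27.5, 28.0 and 27.4 CPM in MPC-PTX. Every MPC-PTX library was therefore far above every MPC library, and the MPC-PTX libraries hardly differed among themselves. The mean was 0.567 ± 0.261 CPM (SD, n = 3) in MPC and 27.6 ± 0.305 CPM (SD, n = 3) in MPC-PTX, a fitted log2 fold change of 5.61. Only 5 of the 11795 tested genes had a larger rise. The ratio of the pooled counts scaled by library size, 1724 against 33, was 50.7. Rank and ratio describe the value by which the set was chosen. Leaving out MPC replicate 1, which holds 16 of the 33 MPC counts, moved the fitted value to 6.01.

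The make-up of dismutase RNA differed between the lines. Sod3 was 0.129% to 0.284% of the summed counts of the 3 dismutase genes in the MPC libraries and 9.52% to 9.55% in the MPC-PTX libraries. Sod1 made up 75.0% to 79.2% and then 58.2% to 61.4%, and Sod2 made up 20.6% to 24.8% and then 29.0% to 32.2%. After division by transcript length, Sod3 was still the least of the 3, at 0.0285% to 0.0617% in MPC and 2.47% to 2.58% in MPC-PTX.

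Sod3 RNA is found in vessel walls and in stromal cells of many tissues, so markers of such cells were counted in the same libraries. Smooth muscle markers summed to 1.35 to 1.86 CPM in MPC and 1.03 to 2.48 CPM in MPC-PTX. Tagln had no more than 2 counts in any library. Acta2 had 4, 7 and 3 counts in MPC and 3, 14 and 10 in MPC-PTX. Myh11 had 3, 9 and 2 counts in MPC and 2, 16 and 11 in MPC-PTX. Fibroblast markers summed to 9.83 to 10.9 CPM and 8.71 to 9.92 CPM. Of these 9 markers, 2 were tested, and the others had at most 17 counts in a library. Col1a1 was called lower in MPC-PTX with a log2 fold change of -0.80 (edgeR, BH-adjusted p = 0.00389). Pdgfra went the other way, at 3.08 to 3.89 CPM in MPC and 4.28 to 4.91 CPM in MPC-PTX. Its log2 fold change was 0.36 and not past the test (edgeR, BH-adjusted p = 0.121). Endothelial markers summed to 2.63 to 3.08 CPM and 2.21 to 2.79 CPM. Leukocyte markers summed to 0.103 to 0.638 CPM and 0.475 to 0.766 CPM. The summed smooth muscle, endothelial and leukocyte markers overlapped between the lines, and Des and Kdr, the markers of these 3 lists that passed the filter, were not past the test.

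The 5 tested genes whose pattern over the 6 libraries was nearest to that of Sod3, by Euclidean distance of centred log2 CPM, were Ces1g (0.968), Krt14 (1.06), Prss12 (1.31), Eif5a2 (1.51) and Sulf2 (1.66). Krt14 encodes a keratin of basal epithelial cells, and Ces1g a carboxylesterase. Raw counts of Krt14 were 15, 4 and 9 in MPC and 690, 641 and 523 in MPC-PTX. Those of Ces1g were 7 in each MPC library and 305, 316 and 235 in MPC-PTX. Like Sod3, both were near the detection limit in MPC and well detected in every MPC-PTX library, which the choice by likeness fixes.

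Genes around Sod3 on chromosome 5 did not share its size of change. Of 9 tested genes that start within 1 Mb of it, 2 were called higher, 2 were called lower and 5 were not past the test. Among all tested genes, 14.1% were called higher and 15.6% lower. The 9 neighbours had a median log2 fold change of 0.11. Ccdc149, the nearest, rose by a log2 fold change of 0.50 ± 0.09 (SE; edgeR, BH-adjusted p = 0.00752). Sepsecs, which makes selenocysteine on its transfer RNA, rose by 0.52 ± 0.12 (SE; edgeR, BH-adjusted p = 0.0168). On the same side, Sel1l3 fell with a log2 fold change of -1.19 and Pi4k2b with -0.43 (edgeR, BH-adjusted p = 0.000118 and 0.0180). The calls of Sepsecs and Pi4k2b were lost in 3 of the 6 fits that left out a library.

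**Figure D2:**
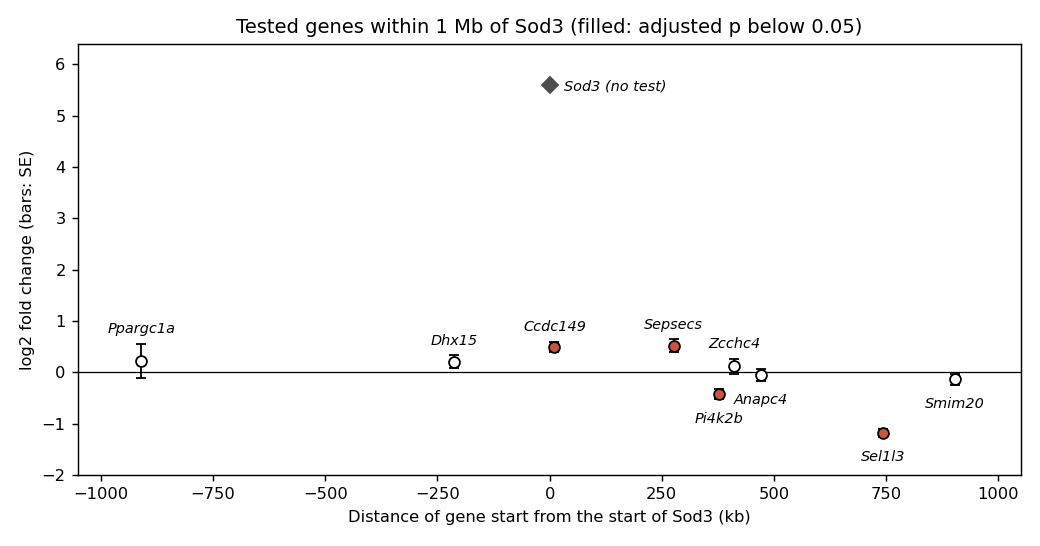
Log2 fold change (vertical axis, MPC-PTX against MPC, bars of 1 SE) of the 9 tested genes within 1 Mb of Sod3, by distance of the gene start from that of Sod3 in kb (horizontal axis); filled points have an adjusted p below 0.05 and the diamond is Sod3, which was not tested. The neighbours lie between -1.19 and 0.52, against 5.61 for Sod3.

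Sod1 (ENSMUSG00000022982; chr16:90220754-90226329, plus strand, GRCm38) encodes the cytosolic dismutase and was the most abundant of the 3 dismutase RNAs in each library. Its level was 228, 229 and 195 CPM in MPC and 174, 180.3 and 167 CPM in MPC-PTX. The lines did not overlap, and MPC replicate 3 was the MPC library nearest to MPC-PTX. Sod1 fell by 20.2%, with a log2 fold change of -0.33 ± 0.08 (SE, n = 3 per line; edgeR, BH-adjusted p = 0.0203) and a 95% interval of -0.51 to -0.14. The call was lost in 4 of the 6 fits that left out a library (MPC replicate 2 or any MPC-PTX library), where the log2 fold change was -0.35 to -0.29 and the adjusted p 0.0634 to 0.0966.

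Sod2 (ENSMUSG00000006818; chr17:13006846-13040063, plus strand, GRCm38) encodes the manganese dismutase of the mitochondrial matrix, which handles superoxide from the respiratory chain. It measured 70.0, 59.8 and 64.6 CPM in MPC and 87.6, 85.3 and 92.4 CPM in MPC-PTX. Every MPC-PTX library lay above every MPC library. Sod2 rose by 36.5%, a log2 fold change of 0.45 ± 0.08 (SE, n = 3 per line; edgeR, BH-adjusted p = 0.00611; 95% interval 0.26 to 0.64), and the call held in each of the 6 fits that left out a library. It did not hold after libraries were corrected for the GC content and length of transcripts, where the log2 fold change was 0.24 (edgeR, BH-adjusted p = 0.281). The Sod2 transcript has a GC content of 42.2% and a length of 5861 bases, and the median GC content of tested genes was 50.2%.

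Copper reaches Sod1 and Sod3 through a short chain of transporters and chaperones. Of 6 copper supply genes, all tested, 2 were called higher, 1 lower and 3 not past the test. The shares over all tested genes were 14.1% higher and 15.6% lower. The list's median log2 fold change was 0.25. Atp7b, a copper pump of the secretory pathway, had raw counts of 4, 6 and 11 in MPC and 36, 33 and 18 in MPC-PTX. All MPC-PTX libraries were above all MPC libraries at this low level, and the fitted log2 fold change was 1.94. Atp7b passed the filter on low counts through its MPC-PTX libraries alone, so its p is not given, and where 10 counts were required in every library it was not tested and 1 gene of the list was called higher. With single libraries left out, 1 to 3 of these genes were called higher and 0 to 2 lower. Nothing is read from the counts of these alternative fits, whose shares over all tested genes are not given here.

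Cat (ENSMUSG00000027187; chr2:103453849-103485160, minus strand, GRCm38) encodes catalase, the haem enzyme of peroxisomes that splits hydrogen peroxide without a reducing partner. Its level was 192, 211 and 200.4 CPM in MPC and 146, 143 and 141 CPM in MPC-PTX. The lines were well separated, with both spreads small: 201 ± 9.08 CPM against 143 ± 2.44 CPM (SD, n = 3). Cat fell by 28.8%, a log2 fold change of -0.49 ± 0.06 (SE; edgeR, BH-adjusted p = 0.00115; 95% interval -0.63 to -0.35). Cat was called lower in all 13 alternative fits, with log2 fold changes between -0.55 and -0.45.

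Gpx1, Gpx2, Gpx3 and Gpx4 are selenoenzymes: a TGA codon that elsewhere ends translation is read in them as selenocysteine, the residue that reacts with the peroxide. The 27 coding bases around that codon are shown because they mark these 4 genes off from the other 6, whose coding sequences hold 0 TGA codons in frame before the stop. The capitals mark the selenocysteine codon, from GENCODE M21 transcripts.
Gpx1: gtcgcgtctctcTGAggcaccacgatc
Gpx2: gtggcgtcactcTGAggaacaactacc
Gpx3: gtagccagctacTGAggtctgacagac
Gpx4: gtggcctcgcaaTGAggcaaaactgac

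The codon is number 47 in Gpx1 (chr9:108339451-108339453, plus strand, GRCm38), 40 in Gpx2 (chr12:76795256-76795258, minus strand), 73 in Gpx3 (chr11:54907256-54907258, plus strand) and 73 in Gpx4 (chr10:80054737-80054739, plus strand). Gpx1 and Gpx2 were the closest pair, with 21 of the 27 bases identical, and Gpx3 shared 13 bases with each of them. Gpx2 and Gpx4 shared 19 bases, Gpx1 and Gpx4 17, and Gpx3 and Gpx4 16.

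Gpx1 (ENSMUSG00000063856; chr9:108338903-108340343, plus strand, GRCm38), the cytosolic peroxidase found in most cell types, was almost without counts. It had 4, 6 and 5 counts in MPC and 5, 5 and 5 counts in MPC-PTX, a level of 0.254 ± 0.0499 CPM against 0.245 ± 0.0452 CPM (SD, n = 3). The libraries of the lines overlapped throughout. The filter removed it, and the ratio of its pooled counts was 0.971 with a 95% counting interval of 0.442 to 2.13, so a difference within that interval was not detectable at this depth. GENCODE M21 tags Gpx1 as part of an overlapping locus, although no exon of another gene overlaps its exons in that annotation. The annotation and counting rules behind the deposited counts are not given in the sources used here, so its level is uncertain.

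Gpx2 (ENSMUSG00000042808; chr12:76792333-76795554, minus strand, GRCm38) encodes the peroxidase of gastrointestinal epithelium. It stood at 303, 222 and 183 CPM in MPC and at 278, 283 and 275 CPM in MPC-PTX. MPC replicate 1 was above all MPC-PTX libraries and the other two MPC libraries were below them, so the lines overlapped. The log2 fold change was 0.24 ± 0.17 (SE; edgeR, BH-adjusted p = 0.329; 95% interval -0.16 to 0.65). Without MPC replicate 1 it was 0.46 (edgeR, BH-adjusted p = 0.00717), and after the correction for GC content and length 0.33 (edgeR, BH-adjusted p = 0.0243). Without MPC replicate 3 it was 0.039 and not past the test.

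Gpx3 (ENSMUSG00000018339; chr11:54902453-54910377, plus strand, GRCm38), the secreted peroxidase of plasma, was low in both lines, with 67, 71 and 61 counts in MPC and 61, 79 and 63 counts in MPC-PTX. Its level was 3.38 ± 0.395 CPM against 3.30 ± 0.611 CPM (SD, n = 3), and the libraries overlapped. The log2 fold change was -0.041 ± 0.19 (SE; edgeR, BH-adjusted p = 0.892), with a 95% interval of -0.50 to 0.41, and it took the opposite sign in 3 alternative fits.

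Gpx4 (ENSMUSG00000075706; chr10:80047166-80056439, plus strand, GRCm38) reduces lipid peroxides inside membranes and is known as the enzyme that holds back ferroptosis. It measured 289, 262 and 214 CPM in MPC and 198, 216 and 205 CPM in MPC-PTX. MPC replicate 3 fell within the MPC-PTX range, and the other two MPC libraries were above it. The log2 fold change was -0.31 ± 0.11 (SE; edgeR, BH-adjusted p = 0.0754; 95% interval -0.56 to -0.05). Without MPC replicate 3 it was -0.47 (edgeR, BH-adjusted p = 7.74e-05), and DESeq2 gave -0.34 (BH-adjusted p = 0.0414).

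Selenocysteine is made on its own transfer RNA and inserted by a dedicated set of factors. Of 8 genes for selenoprotein synthesis, all tested, 1 was called higher (Sepsecs, above) and 1 lower, beside 14.1% and 15.6% of all tested genes. The list's median log2 fold change was 0.11. The gene called lower was Scly, which releases selenium from selenocysteine, at -0.40 ± 0.10 (SE; edgeR, BH-adjusted p = 0.0195), a call lost in 4 of the 6 fits with a library left out. With single libraries left out, 0 to 2 were called in either direction. The shares over all tested genes in those fits are not given here, so nothing is read from these counts.

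Of 15 other selenoproteins, 11 were tested, of which 2 were called higher and 1 lower, beside 14.1% and 15.6% of all tested genes. The list's median log2 fold change was 0.23. Selenop, the secreted carrier of selenium, had 576, 792 and 854 counts in MPC and 347, 304 and 257 counts in MPC-PTX. Every MPC-PTX library was below every MPC library, and the log2 fold change was -1.36 ± 0.13 (SE; edgeR, BH-adjusted p = 0.000438), a call that held with each library left out. With single libraries left out, 1 to 4 of these genes were called higher and 1 to 3 lower. Shares over all tested genes in those fits are not given here, so nothing is read from these counts.

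Prdx1 (ENSMUSG00000028691; chr4:116685544-116700822, plus strand, GRCm38) encodes an abundant cytosolic peroxiredoxin that draws its electrons from thioredoxin. Its level was 964, 858 and 746 CPM in MPC and 651, 663 and 664 CPM in MPC-PTX. The lines did not overlap, although the MPC libraries were spread widely and the MPC-PTX libraries were close together, at 856 ± 109 CPM against 659 ± 6.85 CPM (SD, n = 3). Prdx1 fell to 0.770 of its MPC level, a log2 fold change of -0.38 ± 0.09 (SE; edgeR, BH-adjusted p = 0.0228; 95% interval -0.60 to -0.15). As for Sod1, the call was lost without MPC replicate 2 or without any of the MPC-PTX libraries, with adjusted p of 0.0802 to 0.0916.

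Prdx6 (ENSMUSG00000026701; chr1:161240112-161251219, minus strand, GRCm38) encodes a peroxiredoxin that uses glutathione and can repair oxidized phospholipids. It stood at 334, 307 and 259 CPM in MPC and at 252, 246 and 246 CPM in MPC-PTX. Each MPC-PTX library was below each MPC library, with MPC replicate 3 only just above MPC-PTX replicate 1. The log2 fold change was -0.27 ± 0.09 (SE; edgeR, BH-adjusted p = 0.0657; 95% interval -0.50 to -0.05). It passed the threshold without MPC replicate 3, at -0.42 (edgeR, BH-adjusted p = 5.19e-05), and with DESeq2, at -0.31 (BH-adjusted p = 0.0409).

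**Figure D3:**
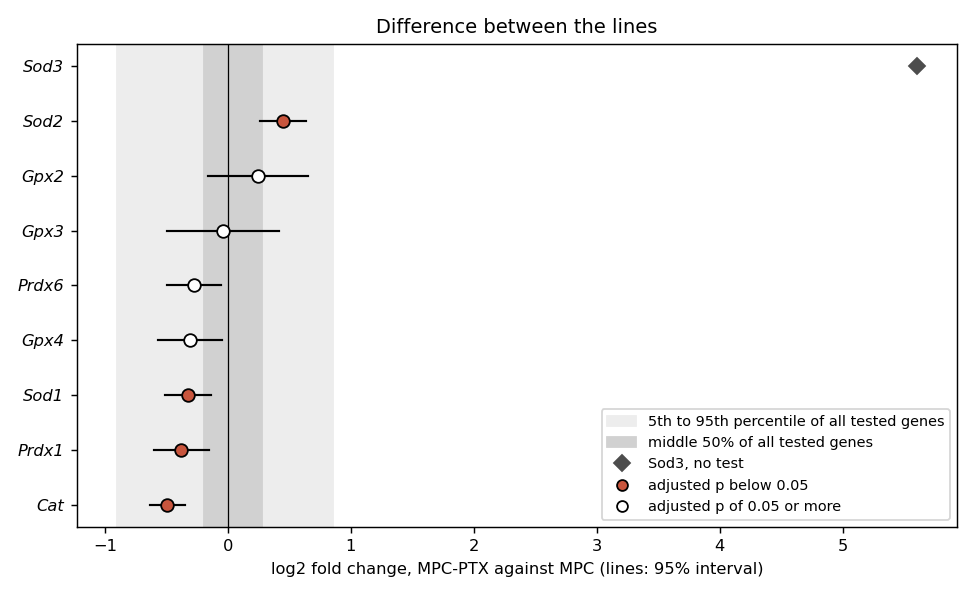
Log2 fold change of MPC-PTX against MPC for the 9 tested genes of the set, with lines for the 95% interval; filled points have an adjusted p below 0.05, the diamond is Sod3, which was not tested, and the grey bands hold the middle 50% and the 5th to 95th percentiles of all tested genes. The 8 genes other than Sod3 lie between -0.49 and 0.45, inside the wider band of -0.90 to 0.86.

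Some of these genes have near-identical copies that could take or lend reads. At 90% identity or more over 80% of the coding sequence, Sod1 and Gpx2 each have 1 pseudogene copy, Gpx4 has 2 and Prdx1 has 3, and 0 of these copies are rows of the count table. Prdx6 has the gene Prdx6b, with 92.9% identity, which is in the table at 0 counts in every library. How reads that map to several places were counted is not given in the sources used here. Values for Sod1, Gpx2, Gpx4, Prdx1 and Prdx6 are uncertain to that extent.

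The spread among replicates differed between the lines. For 7 of the 8 tested genes other than Sod3, the coefficient of variation was larger in MPC than in MPC-PTX, Gpx3 being the exception. For 6 of the 8, MPC replicate 3 was the lowest MPC library. Over 11776 genes, the log2 ratio of MPC replicate 3 to replicate 1 correlated with GC content at a Spearman rho of -0.57, compared with -0.24 for MPC replicate 2 to 1 and -0.32 for MPC-PTX replicate 3 to 1. These correlations run across genes, and genes are no independent replicates. The correction for GC content and length called 5 of the 8 genes lower (Sod1, Cat, Gpx4, Prdx1 and Prdx6) and 1 higher (Gpx2). The share of all tested genes called in that fit is not given here, so nothing is read from these counts.

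To compare genes with each other, levels were divided by transcript length, that of the longest annotated protein-coding transcript. Which transcripts these cells use was not measured, and the order depends on this choice. In MPC, the order ran from Prdx1 (373 CPM per kb) through Sod1 (339), Gpx4 (256), Gpx2 (221), Prdx6 (126), Cat (77.0), Sod2 (11.1), Gpx3 (2.12) and Gpx1 (0.237) to Sod3 (0.152 CPM per kb). The ranges over the MPC libraries overlapped for the neighbours Prdx1 and Sod1, Gpx4 and Gpx2, and Gpx1 and Sod3. Within each MPC library, Prdx1 was above Sod1 and Gpx4 was above Gpx2. Only Gpx1 and Sod3 changed order from library to library. In MPC-PTX, Prdx1 (287 CPM per kb), Sod1 (271) and Gpx2 (261) led. The ranges of Sod1 and Gpx2 overlapped, although Sod1 was above Gpx2 within each MPC-PTX library. Gpx4 (207), Prdx6 (104), Cat (54.8), Sod2 (15.1), Sod3 (7.38), Gpx3 (2.07) and Gpx1 (0.229 CPM per kb) followed without overlap. On this scale Sod3 thus moved from place 10 to place 8, above Gpx3 and Gpx1, and stayed below Sod2 in every library. The level of Gpx1 is uncertain for the reasons given above, and so is its place in these orders. Per kb of coding sequence it moved from place 9, where it overlapped Gpx1 at place 10, to place 8. That scale leaves out the long untranslated part of Sod2, and on it Sod2 was above Cat in MPC-PTX, at 132 against 90.4 CPM per kb, and below it in MPC, at 96.8 against 127 CPM per kb.

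**Figure D4:**
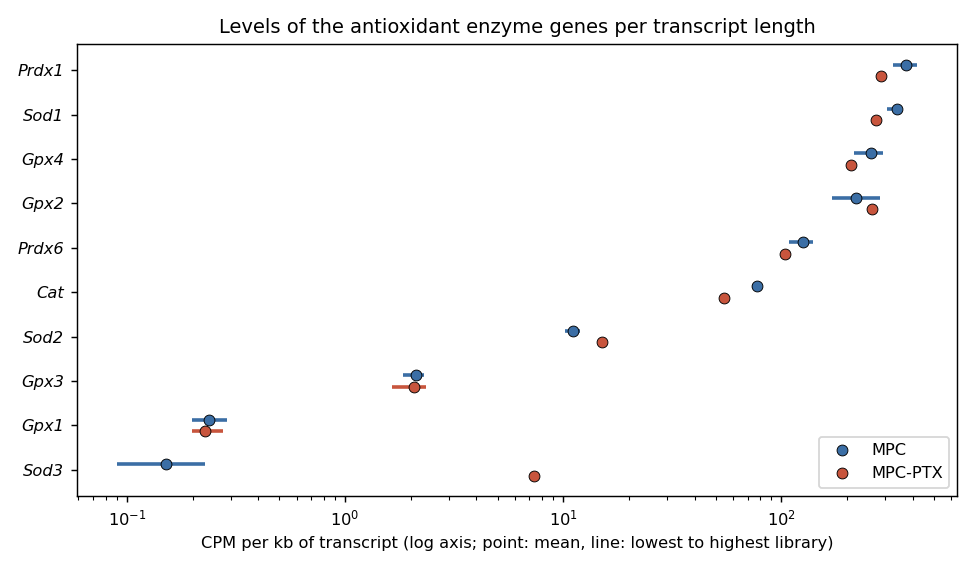
Levels of the 10 genes in CPM per kb of transcript on a log axis, with points at the mean of 3 libraries and lines from the lowest to the highest library. Sod3 moves from 0.152 CPM per kb in MPC to 7.38 CPM per kb in MPC-PTX, and the other genes keep their decade.

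The other enzymes that use thiols to remove peroxides formed a list of 26 genes, of which 23 were tested. Among these, 2 were called higher and 3 lower, beside 14.1% and 15.6% of all tested genes, with a median log2 fold change of -0.01. Txnrd3, a thioredoxin reductase, rose by 0.48 ± 0.09 on the log2 scale (SE; edgeR, BH-adjusted p = 0.00663). Prdx5, a peroxiredoxin of mitochondria and peroxisomes, was called lower, with a log2 fold change of -0.41 ± 0.09 (SE; edgeR, BH-adjusted p = 0.0112), a call that was lost in 4 of 6 fits with a library left out. The count of genes called lower ran from 0 to 9 in those fits, with 9 in the fit without MPC replicate 3. The count called higher ran from 1 to 5. The shares of all tested genes called in those fits are not given here, so nothing is read from these counts. Gpx7, a peroxidase of the endoplasmic reticulum without selenocysteine, was named after its values were seen. It had 4, 11 and 12 counts in MPC and 0 in each MPC-PTX library. Since these values chose it, they are given as a description with no test.

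Sources of superoxide and hydrogen peroxide had the widest range of the 6 lists shown. Of 25 genes, 12 were tested, of which 2 were called higher and 4 lower, beside 14.1% and 15.6% of all tested genes. The list's median log2 fold change was 0.10. Ncf1, a cytosolic organizer subunit of the NADPH oxidase, had 2, 4 and 3 counts in MPC and 30, 27 and 27 counts in MPC-PTX, a fitted log2 fold change of 3.10. Cybb, the catalytic subunit that this organizer serves in phagocytes, had at most 4 counts in any library. Cyba of the same list was at 46.0 to 55.4 CPM in MPC and 54.4 to 55.7 CPM in MPC-PTX, and was not past the test. Nox4, not tested, had 2, 0 and 0 counts in MPC and 13, 5 and 3 in MPC-PTX. Cybb, Cyba and Nox4 are named outside the rule for named genes.

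Duox2 makes hydrogen peroxide at the surface of epithelial cells and Duoxa2 is the partner that brings it there. Duox2 had 31, 56 and 65 counts in MPC and 6, 8 and 10 in MPC-PTX, and Duoxa2 had 29, 70 and 58 counts in MPC and 4, 13 and 3 in MPC-PTX. For both genes every MPC-PTX library was below every MPC library, with fitted log2 fold changes of -2.70 and -3.03. Ncf1, Duox2 and Duoxa2 each passed the filter on low counts through the libraries of the line where they were high, so no p is given for them. Where 10 counts were required in every library they were not tested, and 1 gene of the list was called higher and 2 lower. With single libraries left out, 2 to 4 were called higher and 3 to 4 lower. Nothing is read from the counts of these alternative fits, whose shares over all tested genes are not given here.

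Transcription of antioxidant genes is governed by NRF2, metal-responsive and related factors. All 12 regulators on the list were tested, with 1 called higher and 1 lower, beside 14.1% and 15.6% of all tested genes. The list's median log2 fold change was -0.04. Nfe2l2, which encodes NRF2, was not past the test, at -0.08 ± 0.06 (SE; edgeR, BH-adjusted p = 0.372). Keap1, which marks NRF2 for breakdown, was called lower, at -0.30 ± 0.07, and the metal-responsive factor Mtf1 higher, at 0.33 ± 0.09 (SE; edgeR, BH-adjusted p = 0.0179 and 0.0322). Each call was lost in 4 of 6 fits with a library left out, and that of Mtf1 with DESeq2 as well (BH-adjusted p = 0.0741). With single libraries left out, 0 to 2 regulators were called higher and 0 to 4 lower. Shares over all tested genes in those fits are not given here, so nothing is read from these counts.

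**Figure D5:**
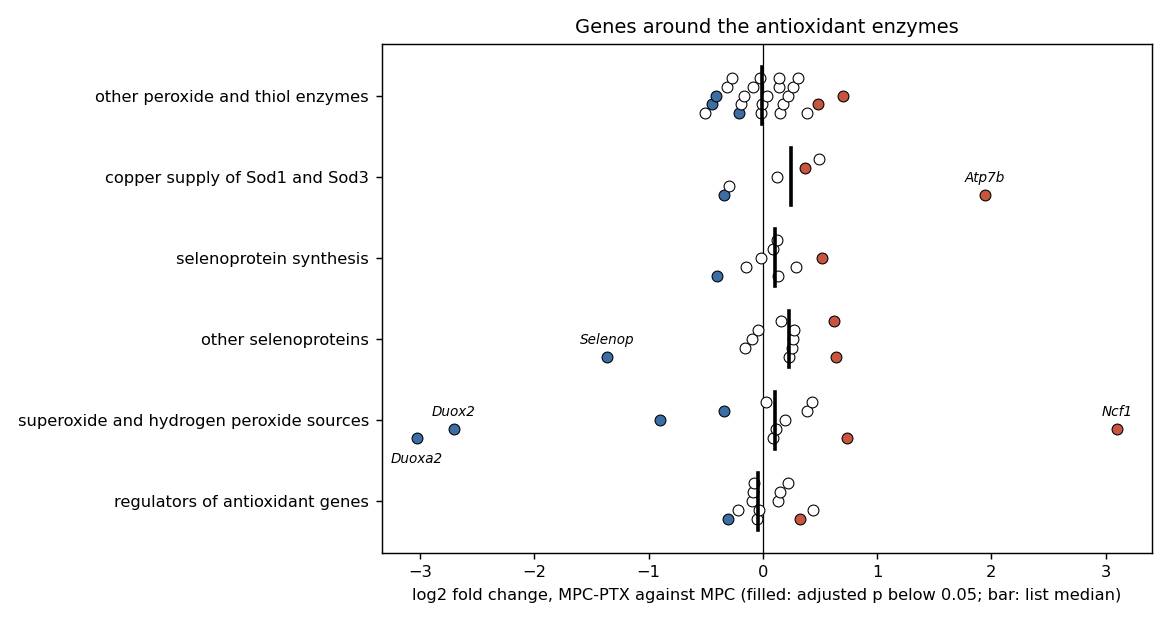
Log2 fold change (MPC-PTX against MPC) of every tested gene of the 6 lists around the antioxidant enzymes, filled where the adjusted p is below 0.05 (red higher, blue lower), with a black bar at the median of each list. The list medians lie between -0.04 and 0.25, and Ncf1, Atp7b, Selenop, Duox2 and Duoxa2 lie beyond 1 in either direction. Ncf1, Atp7b, Duox2 and Duoxa2 passed the filter on low counts through 1 line alone.

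Neighbours of the other genes of the set were described in the same way as those of Sod3, with no test. Within 1 Mb of Gpx4, the log2 fold changes of 70 tested genes had their median at -0.30, against -0.31 for Gpx4 itself. Within 1 Mb of Prdx1, 37 tested genes had a median of 0.34, against -0.38 for Prdx1. Around Sod1, 9 tested genes had a median of 0.23, against -0.33 for Sod1. Medians around Sod2 and Cat were 0.09 and -0.05, each over 10 tested genes. Around Prdx6, 7 tested genes had a median of 0.28, against -0.27 for Prdx6. Around Gpx2, 13 had a median of -0.12, against 0.24 for Gpx2. Medians around Gpx1 (54 tested genes) and Gpx3 (18 tested genes) were -0.13 and -0.05. The median over all tested genes was 0.04.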

How the data were processed

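RNA was measured in 3 MPC and 3 MPC-PTX libraries. Per the labels and the study's methods, the authors selected poly-A RNA, cleaned reads with fastp 0.22.0 (submitters' processing notes), mapped them with HISAT2 and deposited raw read counts per gene, not normalized or pooled. Genome build, annotation, counting tool and use of strand are not given in the sources used here. Sample tables and series table held the same values. Rows without a gene name (0.0173% to 0.0297% of counts) have gene IDs and were kept.

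From the counts, 11795 genes passed filterByExpr (minimum count 10) and were tested, two-sided, with edgeR 4.0.16 (TMM, robust glmQLFit, glmQLFTest; R 4.3.3), with Benjamini-Hochberg adjustment over all of them. Depth was 16574580 to 23148182 counts, at which 3 counts equal 0.130 to 0.181 CPM. The interval of the pooled count ratio of Gpx1 is an exact binomial interval at 95%, and covers counting error only. The chi-square per gene between replicates was 14.9 to 60.7 in MPC and 1.84 to 3.36 in MPC-PTX. The MPC-PTX libraries thus differed far less among themselves, and the edgeR fit uses the same spread per gene for both lines. GENCODE M21 (GRCm38) gave positions, transcript lengths and GC content, and RefSeq gave promoters (found for 8 of the 10 genes). Transcript length and GC content are those of the longest protein-coding transcript of a gene, which may not be the one used in these cells. Scripts were tested on simulated data.

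Named genes were the 10 genes, the genes of each list past the threshold with an absolute log2 fold change above 1 (failing that the 2 with the smallest adjusted p), the 5 genes nearest to Sod3, and genes within 1 Mb of it; exceptions are stated. Some list results are not reported here. The genes and lists were chosen with earlier results of these data known. Alternatives were DESeq2 1.42.0, other scalings and filters, a replicate block, a loess correction for GC content and length, and each library left out. The authors' own comparison was not used.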

Additional observations from a re-analysis of the deposited data

How the results depend on the processing

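Over 13 alternative fits, 86 of the 104 log2 fold changes of the 8 tested genes kept their call; with a library left out, 37 of 48 did. Cat kept its call in all 13. DESeq2 and the GC content and length correction each called 5 genes lower in place of 3, and with a library left out 1 to 5 were called lower and 1 to 2 higher. The shares of all tested genes called in these fits are not given here, so nothing is read from the counts. With DESeq2, Gpx4 (-0.34) and Prdx6 (-0.31) passed the threshold, as did Prdx6 with DESeq2 size factors in edgeR (-0.31). With the GC content and length correction, Gpx2 (0.33), Gpx4 (-0.24) and Prdx6 (-0.30) passed, Sod2 did not (0.24) and Gpx3 turned to 0.066. With a library left out, log2 fold changes ran from -0.45 to -0.29 for Sod1, 0.39 to 0.51 for Sod2, 5.28 to 6.01 for Sod3, 0.039 to 0.46 for Gpx2, -0.19 to 0.11 for Gpx3 (0.019 without MPC replicate 2, 0.11 without MPC-PTX replicate 1), -0.47 to -0.21 for Gpx4, -0.52 to -0.28 for Prdx1 and -0.42 to -0.19 for Prdx6. The cause of these changes was not tested. The count past the fold rule was 0 in all 14 alternatives, which include edgeR's test against a log2 fold change of 1. The median log2 fold change of all genes was 0.04 with TMM, 0.01 with DESeq2 size factors and 0.08 with library size alone. Sod3 could not be tested where 10 counts were required in every library.

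Libraries of both lines share replicate numbers, but same-numbered libraries deviated together with correlations of 0.15, -0.02 and 0.17, and 3 of the 6 libraries correlated best with their own number. With the replicate block, 1 gene of the 8 was called higher and 3 lower, as without it (Sod1 -0.32, Sod2 0.45, Cat -0.49, Prdx1 -0.37), and over all genes 1787 were called higher and 1717 lower, against 1668 and 1841. Of the other named genes, Mtf1 lost its call with the block (edgeR, BH-adjusted p = 0.0587).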
